A study of Schizosaccharomyces pombe with 9 samples.

Results

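The comparison described here is between the library labelled *tup11∆/tup12∆/php5∆* and the library labelled *tup11∆/tup12∆*, both from fission yeast (Schizosaccharomyces pombe) under glucose rich conditions. It takes in 2 of the 9 libraries of the study, and all 5323 features of the deposited expression table were compared, with none chosen by its value. The study sequenced poly(A) RNA of wild-type cells and of both mutants, each after 2 h under glucose rich conditions (yeast extract medium with 6% glucose), glucose starvation (0.1% glucose with glycerol) and nitrogen starvation (1% glucose without a nitrogen source). Each strain and medium has 1 library, so that no difference below could be checked against replicates and no p-value is given. Both mutants carry *tup11* and *tup12* disrupted with *ura4*, and the triple mutant also *php5* replaced by *kanMX6*, as an ascospore clone of a cross between the double mutant and *php5∆* cells. Among the strains the study lists, the double mutant without a tag appears as an h- strain with *ade6-M26* and *leu1-32* and as an h+ strain without these alleles. The triple mutant without a tag and with an intact *fbp1* upstream region appears as an h+ strain with *ade6-M26*. All carry *ura4-D18*. Which of them was sequenced is not given in the sources used here.

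Php5 is a subunit of the CCAAT-binding factor, in which the histone-fold proteins Php3 and Php5 pair with Php2 and bind the CCAAT box in promoters. The complex is known in yeasts as an activator of respiratory genes, and in fission yeast its partner Php4 turns it into a repressor of iron-using genes when iron is scarce. Tup11 and Tup12 are related corepressors that work with Ssn6 and keep many genes low, including genes for the use of carbon sources other than glucose. The comparison asks what the loss of *php5* does to transcript levels in cells without this repression while glucose is abundant.

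The deleted genes and markers come first. *php5* (SPBC3B8.02, chromosome II, 3393904 to 3396506, minus strand) had 61.6 TPM (reads on a feature divided by its length, as a share of 1000000 in each library) in the library labelled *tup11∆/tup12∆*. It had 8.92 TPM in the library labelled *tup11∆/tup12∆/php5∆*, 6.90-fold lower with a 95% interval of 6.36 to 7.50. An annotated antisense transcript covers all of its coding bases, and the libraries do not keep the strand. *tup11* was close to absent from both libraries, with 0.330 and 0.377 TPM where wild-type cells had 41.9 TPM. *tup12* was not, with 89.2 and 84.8 TPM beside a wild-type level of 107 TPM. The libraries are therefore called by their labels, and the second is written below as the *php5∆*-labelled library. *ura4*, the marker, had 170 and 179 TPM. The 10 genes around *php5* all lay within 2-fold, between −0.31 and 0.53 on the log2 scale. *ade6* went from 85.5 to 36.4 TPM, which passed the 2-fold rule given below, and *leu1* from 477 to 306 TPM. Whether both strains carried the same *ade6* and *leu1* alleles is not known, and their part in these values was not tested.

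In this comparison 53733682 reads were counted in the library labelled *tup11∆/tup12∆* and 46620606 in the *php5∆*-labelled library (36652045 to 54303622 over the 9 libraries). The 10 most abundant features held 7.99% and 9.01% of the summed TPM. At this depth 3 reads on a feature of median length were worth 0.0395 and 0.0474 TPM. The median log2 ratio over chromosomes I, II and III was 0.12, 0.11 and 0.14, and over 5 classes of feature length it lay between 0.04 and 0.17.

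A feature was called higher or lower when its TPM differed more than 2-fold and reached at least 10 TPM in the higher library. Of 5323 features, 4737 reached 10 TPM in at least 1 of both libraries. The *php5∆*-labelled library had 202 features over 2-fold higher, which is 4.26% of those compared, and 69 over 2-fold lower, which is 1.46%. Under median-of-ratios scaling the counts were 149 and 100, so that the share of calls on the higher side was 59.8% in place of 74.5%. All other features, 94.3%, lay within 2-fold. The median log2 ratio (of TPM + 1, *php5∆*-labelled over *tup11∆/tup12∆*) was 0.12, and −0.041 under median-of-ratios scaling. List medians below are to be read against 0.12, and counts of list members against the shares of 4.26% higher and 1.46% lower. The middle 90% of features lay between −0.47 and 0.88. Of the features called, 57 were over 4-fold higher and 17 over 4-fold lower. The 95% intervals from the recovered reads excluded 2-fold for 174 of the 202 and for 58 of the 69. Such intervals cover counting error only and say nothing of the spread between cultures.

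**Figure D1:**
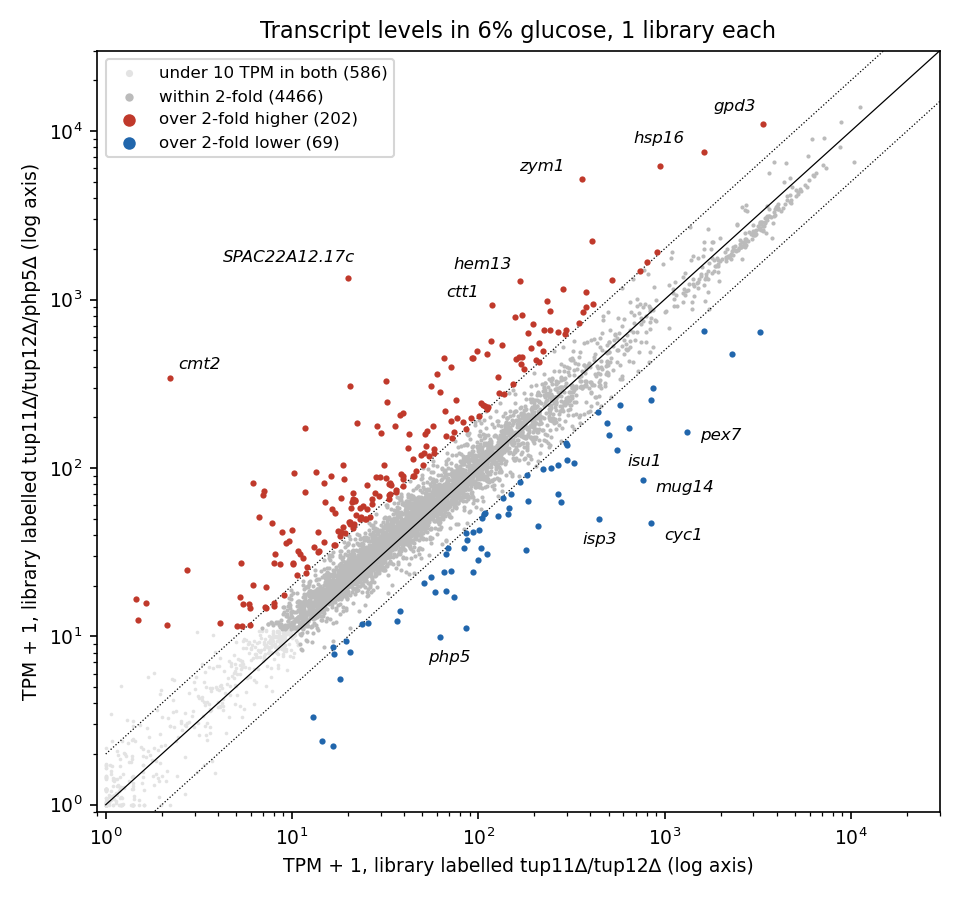
Each point is a feature, with TPM + 1 in the library labelled *tup11∆/tup12∆* on the x axis and in the *php5∆*-labelled library on the y axis, both logarithmic. The solid line marks equal levels and the dotted lines 2-fold. The 202 features over 2-fold higher (red) extend further from the line than the 69 lower ones (blue), and *cyc1*, *mug14*, *isp3* and *pex7* stand apart among the abundant lower genes.

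The lower genes were led by *cyc1*, which encodes cytochrome c, the carrier of electrons between respiratory complexes III and IV. Its transcript had 834 TPM in wild-type cells, 848 in the library labelled *tup11∆/tup12∆* and 46.1 in the *php5∆*-labelled library. That is an 18.4-fold difference between both mutants (17.2 to 19.7, 95% interval), and the largest decrease among features with at least 50 TPM. The gene (SPCC191.07, chromosome III, 1714622 to 1715798, plus strand) is not overlapped on its coding bases by another annotated transcript. The following stretches of genomic sequence lie upstream of the annotated starts of 6 genes of the lower group. They were chosen because these genes are discussed below and hold the CCAAT box that the Php complex binds, and the capitals mark CCAAT or, for a box on the opposite strand, ATTGG. Each is read 5′ to 3′ on the strand of the gene in the ASM294v3 assembly.
cyc1, chrIII:1714502-1714571, plus strand: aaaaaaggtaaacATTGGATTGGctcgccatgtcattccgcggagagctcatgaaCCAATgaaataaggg
coa2, chrI:3687875-3687934, plus strand: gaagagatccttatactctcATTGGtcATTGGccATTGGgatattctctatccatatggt
isu1, chrI:519122-519191, minus strand: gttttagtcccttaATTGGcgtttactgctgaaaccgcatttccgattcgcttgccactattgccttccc
pcl1, chrII:165326-165395, minus strand: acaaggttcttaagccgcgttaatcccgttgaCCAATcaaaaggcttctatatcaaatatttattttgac
mcp60, chrI:342168-342227, minus strand: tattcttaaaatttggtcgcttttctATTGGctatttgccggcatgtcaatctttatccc
pex7, chrI:4722644-4722743, plus strand: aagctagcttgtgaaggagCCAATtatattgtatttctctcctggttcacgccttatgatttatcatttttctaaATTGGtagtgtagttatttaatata
In *cyc1*, the centres of the 3 boxes lie at −105, −100 and −63 from the annotated gene start, the first and second of them directly joined. *coa2* has 3 boxes between −148 and −134. *pex7* has a further box at −219, outside the stretch shown. Other lower genes have no box from 250 bases before to 50 after the start. Among these are *mug14*, *nde1*, *rip1*, SPAC27D7.11c, *ght5*, *sod2*, *isp4*, *mrpl16* and *ade6*. *cit1*, *php5* and SPCC417.15 have 1 box each, after the start.

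The whole list of respiratory chain and ATP synthase genes was shifted in the same direction. All 32 nuclear genes had a log2 ratio below 0, under each of the 4 scalings, with a median of −0.76 and a range of −4.17 to −0.15. Where a pair of TPM values follows, the first is from the library labelled *tup11∆/tup12∆* and the second from the *php5∆*-labelled library. Most of these differences were under 2-fold. Only 5 of 32 passed the rule, against 1.46% of all features, and under median-of-ratios scaling 10 did. Their summed level was 13462 TPM in wild-type cells, 11634 in the library labelled *tup11∆/tup12∆* and 6495 in the *php5∆*-labelled library. Apart from *cyc1*, the members that passed were *nde1* and *ndi1*, *rip1* and *qcr7*. *nde1* and *ndi1* encode the single-subunit NADH dehydrogenases that stand in for complex I in yeasts. *nde1* had 298 and 111 TPM, 2.68-fold lower (2.63 to 2.74), and *ndi1* had 100 and 41.7 TPM, 2.41-fold lower (2.32 to 2.50). *rip1*, the Rieske iron-sulfur protein of complex III, went from 222 to 97.4 TPM, and *qcr7*, another complex III subunit, from 299 to 136 TPM.

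By complex, the 9 genes of complex III had a median log2 ratio of −0.80, the 8 of complex IV −0.77 and the 12 of ATP synthase −0.63. The smallest difference was that of *atp1*, with 329 and 296 TPM. Genes that help to build this chain were also among the lower ones, though they were chosen after their values were seen. *cyc2*, which takes part in the attachment of haem to cytochrome c, had 93.2 and 23.2 TPM. *coa2*, an assembly factor of cytochrome oxidase, had 98.1 and 27.3 TPM, and *mix17*, a mitochondrial CHCH-domain protein, had 647 and 171 TPM. *cir2*, which feeds electrons from flavoproteins into the ubiquinone pool, had 110 and 29.9 TPM.

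The citric acid cycle did not follow as a whole. Of 16 genes, 11 had a negative log2 ratio and 5 a positive one, with a median of −0.17. Only *cit1*, citrate synthase, passed the rule, with 572 and 235 TPM against 231 TPM in wild-type cells. *aco1*, aconitase, had 376 and 244 TPM, while *sdh2*, the iron-sulfur subunit of succinate dehydrogenase, had 366 and 407 TPM. *mcp60*, the mitochondrial chaperonin, went from 847 to 251 TPM, 3.37-fold lower (3.33 to 3.42). *sod2*, the mitochondrial manganese superoxide dismutase, went from 296 to 139 TPM. Of 50 mitochondrial ribosomal protein genes, only mrpl16 passed the rule, with 104 and 49.1 TPM, and the median of the list was −0.05.

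**Figure D2:**
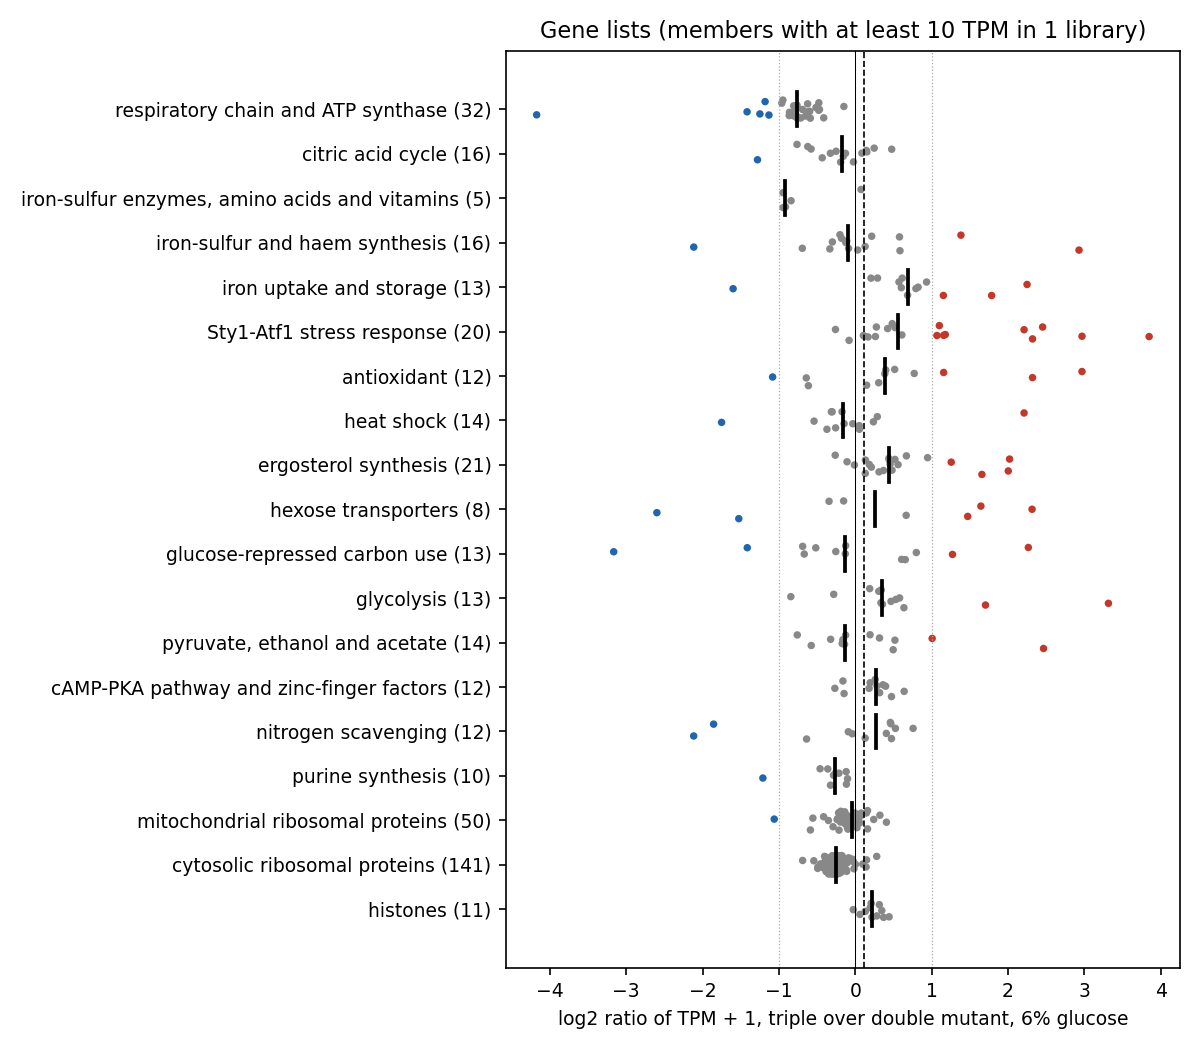
Each point is the log2 ratio of TPM + 1 (*php5∆*-labelled over *tup11∆/tup12∆*, 6% glucose) of a gene, sorted into lists by function, with red and blue for genes that passed the 2-fold rule and black bars for list medians. The number of genes with at least 10 TPM stands beside each name, the dashed line marks the median of all features (0.12) and the dotted lines 2-fold. All 32 respiratory genes lie left of 0, and 12 of 13 iron uptake and storage genes and 18 of 20 genes of the Sty1-Atf1 response lie right of it.

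In iron metabolism, *isu1* and *pcl1* were the lower genes and uptake genes the higher ones. *isu1*, the scaffold on which iron-sulfur clusters are assembled, had 556 TPM in the library labelled *tup11∆/tup12∆* and 128 in the *php5∆*-labelled library, 4.36-fold lower (4.22 to 4.50), with 342 TPM in wild-type cells. *pcl1*, a vacuolar iron transporter, had 325 and 107 TPM, 3.05-fold lower (2.95 to 3.15). Among 5 enzymes with iron-sulfur clusters that work in amino acid and vitamin synthesis, none passed the rule, but 4 lay close to it. These were *lys4* with 822 and 426 TPM, *ilv3* with 277 and 143 TPM, *leu2* with 349 and 185 TPM, and *glt1* with 66.1 and 36.4 TPM. The fifth, *bio2* (biotin synthase), had 140 and 148 TPM. Under median-of-ratios scaling those 4 passed the rule as lower.

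Of 14 genes for iron uptake and storage, 13 reached 10 TPM, and 12 of these had a positive log2 ratio, under each of the 4 scalings. The median was 0.69. The exception was *pcl1*. Those over 2-fold higher were *shu1*, *sib2* and *frp1*, 3 of 13 against 4.26% of all features, and under median-of-ratios scaling 2 of 13, without *frp1*. *shu1*, a cell-surface haem-binding protein, had 0.0885 TPM in the wild type, 170 in the library labelled *tup11∆/tup12∆* and 813 in the *php5∆*-labelled library, 4.78-fold higher than in the former (4.66 to 4.90). *sib2*, an ornithine monooxygenase that starts siderophore synthesis, had 23.0, 183 and 635 TPM in the same order. *frp1*, the cell-surface ferric reductase, had 16.5, 223 and 496 TPM. The siderophore transporter *str1* had 145 and 277 TPM in both mutants and the iron permease *fip1* 469 and 754 TPM, both within 2-fold. *fep1*, the repressor of iron uptake genes, had 24.5 and 28.4 TPM.

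Of the remaining subunits of the CCAAT-binding factor, *php2* had 25.2 and 50.4 TPM, just over the rule at 2.00-fold (1.88 to 2.12), and under median-of-ratios and upper-quartile scaling it lies below it. *php3* had 121 and 154 TPM. *php4*, the subunit that confers repression under low iron, had 38.5 and 88.4 TPM, 2.29-fold higher (2.18 to 2.41), with 62.8 TPM in wild-type cells. Of the corepressor genes, *ssn6* had 24.6 and 24.7 TPM.

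Haem synthesis genes did not move together. *hem13*, coproporphyrinogen III oxidase, was much higher, with 167 and 1280 TPM (7.66-fold, 7.51 to 7.82) and 226 TPM in wild-type cells. *hem1*, which catalyses the first step, had 212 and 554 TPM. *hem2* had 170 and 174 TPM, *hem12* 90.7 and 99.3 TPM, and *hem3* 88.1 and 54.1 TPM. Over the 16 genes of iron-sulfur cluster and haem synthesis the median was −0.10, with *hem13* and *hem1* higher and *isu1* lower by the rule.

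The ergosterol pathway, whose demethylation and desaturation steps consume oxygen and rely on haem or iron enzymes, had 18 of 21 genes with a positive log2 ratio and a median of 0.45. Under median-of-ratios scaling 16 had a positive ratio, with a median of 0.28. By the rule, 4 of 21 were higher and 0 lower, against 4.26% and 1.46% of all features. *erg1*, squalene monooxygenase, had 285 and 1158 TPM, 4.07-fold higher (4.01 to 4.12). *erg31*, a sterol desaturase, had 133 and 538 TPM, and *erg25*, the C-4 methylsterol oxidase, had 378 and 906 TPM. *sre1*, the sterol-regulated transcription factor that activates this pathway under low oxygen, had 27.1 and 87.6 TPM. Other oxygen-using enzymes of the pathway were within 2-fold, with *erg11* at 255 and 493 TPM, *erg5* at 451 and 522 TPM and *erg32* at 47.8 and 39.7 TPM.

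The 12 largest increases were of mixed function. *cmt2* (SPBPB21E7.04c), annotated as a catechol O-methyltransferase, had 2.96 TPM in wild-type cells, 1.21 in the library labelled *tup11∆/tup12∆* and 342 in the *php5∆*-labelled library, 281-fold higher than in the former (223 to 360). SPAC22A12.17c, annotated as a dehydrogenase, had 19.0 and 1336 TPM, 70.5-fold higher (66.3 to 75.0). Almost all of its coding bases are covered by annotated antisense transcripts, whose reads cannot be told apart from its own. *zym1*, the metallothionein that binds zinc and other metals, had 77.7 TPM in wild-type cells, 359 in the library labelled *tup11∆/tup12∆* and 5186 in the *php5∆*-labelled library, 14.4-fold higher (14.0 to 14.9). Its coding bases are free of overlap. *ctt1*, catalase, had 117 and 926 TPM, 7.89-fold higher (7.74 to 8.04), and is also free of overlap. Of 103 named genes, 31 are overlapped on all coding bases, so that their counts may hold reads of another transcript. Among these are SPAC4H3.08, *ssd2*, *atf21*, *osr1*, SPCC663.08c and SPAC637.03 of the largest increases. So are *mug14*, *mfs3*, *amt1*, *rip1*, *pcl1*, *php4*, *erg1*, *srx1*, *gst2* and *agl1*. *isp3*, *mcp60* and *pex7* have 95.8%, 94.2% and 92.2% of their coding bases overlapped.

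The other genes among the 12 largest increases had low levels in the library labelled *tup11∆/tup12∆*. *osr1* had 19.4 and 303 TPM, and SPCC663.08c, which lies near it, had 31.0 and 328 TPM. Both are annotated as dehydrogenases and share 11.8% of their 50-base words with other places in the genome, so that some of their reads may be each other's. SPAC4H3.08, annotated as a 3-hydroxyacyl-CoA dehydrogenase, had 10.7 and 171 TPM, and *ssd2*, a succinate-semialdehyde dehydrogenase, had 9.27 and 91.7 TPM. *atf21*, a transcription factor of the Atf-CREB family, had 5.20 and 80.4 TPM. *sul2*, a sulfate transporter, had 6.04 and 72.1 TPM. *eno102*, a second enolase gene near the end of chromosome II, had 5.97 and 68.4 TPM. SPAC637.03, an uncharacterized protein, had 21.2 and 184 TPM. All 12 had more TPM in the *php5∆*-labelled library than in wild-type cells, and only SPAC22A12.17c and *zym1* were over 2-fold above wild-type cells in the library labelled *tup11∆/tup12∆*.

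**Figure D3:**
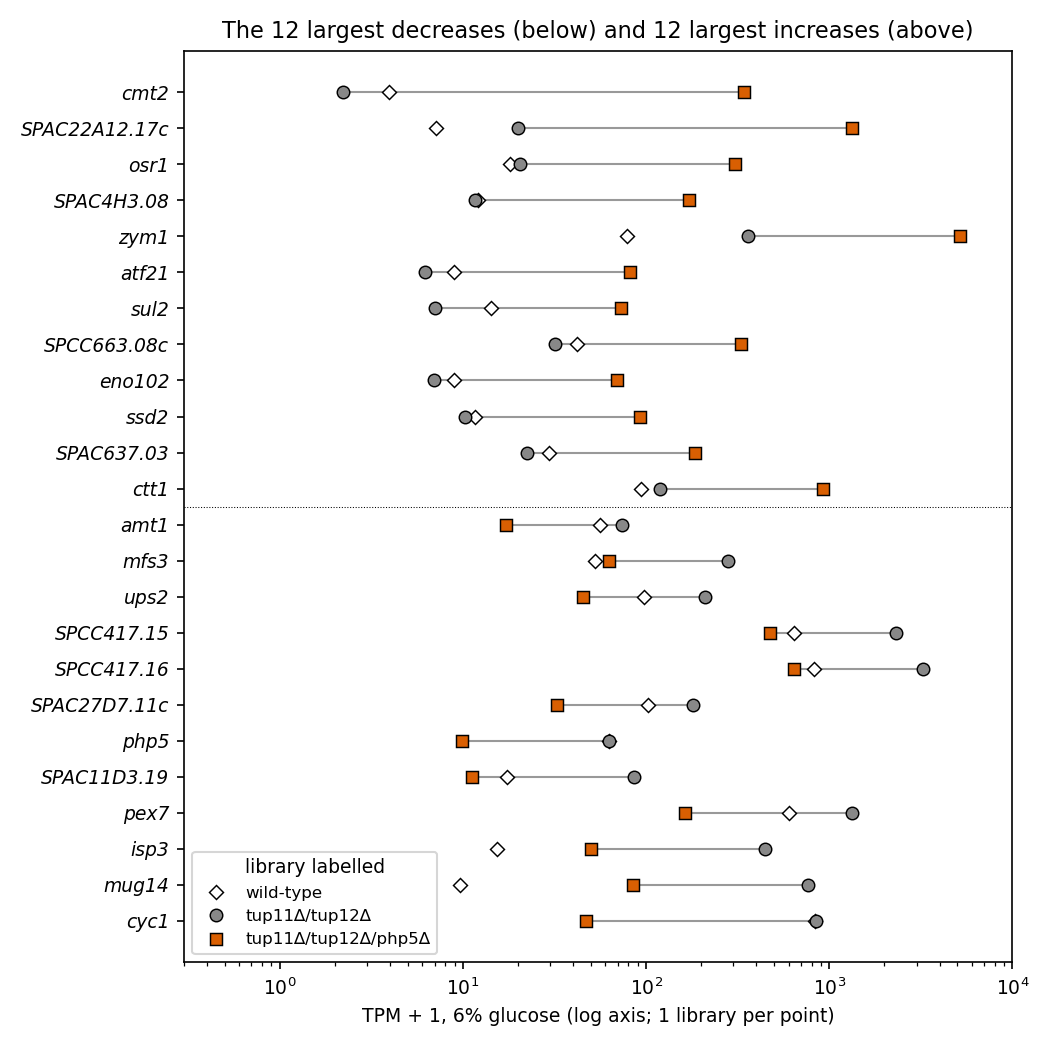
TPM + 1 on a logarithmic axis of the 12 largest increases and 12 largest decreases, by log2 ratio among features that reached 50 TPM in either library, in wild-type cells (diamonds) and in the libraries labelled *tup11∆/tup12∆* (circles) and *tup11∆/tup12∆/php5∆* (squares) in 6% glucose, 1 library per point. The grey lines join both mutants. All 12 squares of the upper genes lie right of the diamonds, and 9 of the 12 squares of the lower genes, that of the deleted *php5* among them, lie left of them.

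Of 20 genes of the stress response that runs from the MAP kinase Sty1 to the transcription factor Atf1, 9 were higher by the rule and 0 lower, against 4.26% and 1.46% of all features. Under median-of-ratios scaling 6 were higher, without *gpx1*, *rds1* and *gst3*. The list had 18 positive ratios, 16 under median-of-ratios scaling, and a median of 0.57. Besides *zym1* and *ctt1*, *gst2* (a glutathione S-transferase) had 405 and 2221 TPM, *srx1* (sulfiredoxin, which repairs oxidized peroxiredoxin) 97.3 and 490 TPM, and *hsp16* (a small heat shock protein) 1628 and 7540 TPM. *gpx1* (glutathione peroxidase), *plr1* (pyridoxal reductase), *rds1* and *gst3* lay between 2.12-fold and 2.27-fold higher. The signalling genes themselves were within 2-fold, with *sty1* at 188 and 205 TPM, *wis1* at 26.9 and 30.4 TPM, and *atf1* at 43.9 and 59.2 TPM. *tps1*, for trehalose synthesis, had 191 and 274 TPM and *hsp9* 5884 and 7126 TPM. Of 14 heat shock genes, *hsp16* was the only one higher by the rule and *mcp60* the only one lower, and the median was −0.16.

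Of 12 antioxidant genes, *ctt1*, *srx1* and *gpx1* were higher and *sod2* lower by the rule, against 4.26% and 1.46% of all features. The peroxiredoxin *tpx1* had 3849 and 6574 TPM and the copper-zinc superoxide dismutase *sod1* 1699 and 1110 TPM, both within 2-fold. The transcription factor genes *pap1* and *prr1* had 73.4 and 81.4 TPM and 98.2 and 129 TPM.

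Genes of carbon use, for which Tup11 and Tup12 are best known, moved in both directions. *mug14* had 8.70 TPM in wild-type cells, 760 in the library labelled *tup11∆/tup12∆* and 84.0 in the *php5∆*-labelled library, 9.05-fold lower than in the former (8.76 to 9.36). *dak2*, a dihydroxyacetone kinase, had 36.9 and 13.2 TPM, while *dak1*, the other such kinase, had 265 and 643 TPM. *agl1*, an alpha-glucosidase, had a wild-type level of 2.56 TPM and 92.9 and 451 TPM in both mutants. *inv1*, invertase, had 678 and 426 TPM and *gld1*, glycerol dehydrogenase, 69.6 and 42.8 TPM, both within 2-fold. *fbp1*, fructose-1,6-bisphosphatase, was low in all of them, with 5.11 TPM in wild-type cells, 6.68 and 11.1 TPM. Over the 13 genes of this list, 2 were higher and 2 lower, against 4.26% and 1.46% of all features, with a median of −0.13.

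The 8 hexose transporter genes were as divided, with 3 higher and 2 lower, against 4.26% and 1.46% of all features. *ght2* had 157 and 783 TPM, higher by a fold of 4.92 to 5.09 (95% interval), and *ght6* had 24.2 and 77.8 TPM. *ght8* had a wild-type level of 596 TPM and 159 and 442 TPM in both mutants. *ght5*, the high-affinity glucose transporter, had 16.4 TPM in wild-type cells, 863 in the library labelled *tup11∆/tup12∆* and 299 in the *php5∆*-labelled library, 2.88-fold lower than in the former (2.85 to 2.92). *ght7* had 13.6 and 1.41 TPM. *ght5* and *ght8* have 37.4% and 38.2% of their 50-base words elsewhere in the genome, so that their reads may be shared with related genes. *ght3*, with 39.3 and 35.2 TPM, and *ght1*, with 8.57 and 14.2 TPM, were within 2-fold.

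The glycolytic genes had 2 of 13 higher and 0 lower, against 4.26% and 1.46% of all features, with a median of 0.36. These were *eno102*, given above, and *gpd3*, a glyceraldehyde 3-phosphate dehydrogenase, with a wild-type level of 108 TPM and 3388 and 11053 TPM in both mutants, the most abundant of the called features. *gpd3* has 24.4% of its 50-base words elsewhere in the genome, so that its reads may be shared with related genes. An annotated antisense transcript overlaps 32.2% of its coding bases. In pyruvate and alcohol metabolism *adh8* had 13.8 and 80.9 TPM and *atd3* 10.9 and 22.9 TPM (under 2-fold with median-of-ratios scaling), while 12 other members with at least 10 TPM were within 2-fold. None of the 12 genes of the cAMP-PKA pathway and its zinc-finger factors passed the rule. Their ratios ran from −0.27 to 0.64, with *gpa2* at 112 and 92.6 TPM, *git5* at 21.5 and 34.1 TPM, and *rst2* at 51.7 and 64.7 TPM.

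The study set criteria for genes that follow *fbp1* in starvation media, and 17 genes of the table met them. These were chosen on the other libraries of these strains and on their change under nitrogen starvation, so that they are described here without a reading of their count. In glucose rich medium 5 of 16 with at least 10 TPM were lower by the rule and none higher. They were *mug14*, SPAC11D3.19, *ups2*, *dak2* and *ndi1*. SPAC11D3.19, uncharacterized, had a wild-type level of 16.4 TPM and 84.7 and 10.2 TPM in both mutants, 8.27-fold lower (6.94 to 9.93). *ups2*, a lipid transfer protein gene, had 96.9, 208 and 44.3 TPM in the same order. *mcs6* had 140 TPM in both mutants, and *ght3*, *gld1*, *ach1*, *kgd1* and *pdc201* also lay within 2-fold.

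The other large decreases were of mixed function. *isp3* had 14.4 TPM in wild-type cells, 444 in the library labelled *tup11∆/tup12∆* and 48.8 in the *php5∆*-labelled library, 9.10-fold lower than in the former (8.64 to 9.59). *pex7*, the receptor that brings a class of enzymes into peroxisomes, had 598, 1325 and 162 TPM in the same order. SPCC417.16 had 822, 3257 and 642 TPM and its neighbour SPCC417.15 had 644, 2308 and 474 TPM. All coding bases of SPCC417.15 are overlapped by the transcripts of SPCC417.16 and *prl32* on the same strand, so that its counts may hold reads of these. The coding bases of SPCC417.16 are free of overlap. SPAC27D7.11c, a But2 family gene with 20.1% of its 50-base words elsewhere in the genome, had 102, 180 and 31.5 TPM. *mfs3*, a predicted polyamine transporter, had 51.4, 277 and 62.1 TPM, and *amt1*, an ammonium transporter, had 55.3, 73.2 and 16.1 TPM. Of the 12 largest decreases, which include the deleted *php5*, 9 ended below the wild-type level (8 of 11 without *php5*), and *mug14*, *isp3* and *mfs3* stayed above it.

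Other lists had between 0 and 2 calls each. Of 12 genes for nitrogen scavenging, *amt1* and *isp4*, an oligopeptide transporter with 65.8 and 17.5 TPM, were lower and 0 higher, against 1.46% and 4.26% of all features. Of 9 genes of flocculins and of factors that control flocculation, the flocculin genes *pfl8* (102 and 32.2 TPM) and *pfl7* (24.7 and 11.0 TPM) were lower, against 1.46% of all features. *cta3*, listed under cation transport, had 54.5 and 21.6 TPM. Of the phosphate genes *tgp1* had 4.92 and 10.7 TPM, a call that was lost under median-of-ratios scaling. None of 11 histone genes and none of 138 cytosolic ribosomal protein genes passed the rule, though 135 of the latter had a negative ratio, with a median of −0.26. That list was drawn by symbol, and the RNase P subunit genes *rpp1*, *rpp21* and *rpp40*, which match the same letters, are left out of these counts but are among the 141 genes plotted by list. These 141 genes summed to 405991 TPM in the library labelled *tup11∆/tup12∆* and to 341788 TPM in the *php5∆*-labelled library. The 202 higher features together gained 56971 TPM and the 69 lower ones lost 15694 TPM. TPM has a fixed sum, and the part of the ribosomal decrease in the excess of higher features was not tested. With median-of-ratios scaling 140 of the 141 genes fell below 0, and the middle of that list lay at −0.42, beside −0.041 for all features. Upper-quartile scaling put it at −0.33, with 137 genes below 0. TPM without the 10 most abundant features of each library put it at −0.23, with 134 below 0. All 10 purine synthesis genes had a negative ratio, of which only *ade6* passed the rule. Of 6 M-cell genes none passed, and of 4 P-cell genes *map2*, a pheromone precursor, did with 10.1 and 30.0 TPM.

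Within 100 kb of the ends of chromosomes I and II, 138 features lie, of which 53 reached 10 TPM. Of these 53, 12 were higher and 7 lower, against 4.26% and 1.46% of all features, with *cmt2*, *sul2*, *eno102* and *shu1* among the former and *isp3*, *ght7* and *dak2* among the latter.

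The CCAAT box was then counted around the annotated starts of genes, from 250 bases before to 50 after. The letters CCAAT or their reverse complement ATTGG were present in 2234 of 5315 windows, 42.0%. Among the features over 2-fold lower they were present in 47 of 69 windows, 68.1% with a 95% binomial (Clopper-Pearson) interval of 55.8 to 78.8%. Among the features over 2-fold higher they were present in 92 of 201, 45.8% (38.7 to 52.9%). Among the 29 features over 3-fold lower, 24 had the box, 82.8% (64.2 to 94.2%). The deleted *php5*, whose only box lies after its start, is counted in these shares of lower features. At least 2 copies were present in 34.8% of the lower windows and in 10.7% of all windows. On the strand of the gene alone, the shares were 46.4% of the lower and 24.7% of all windows. The contrast was smaller in the 500 bases before the coding start, with 71.0% of the lower and 59.2% of all windows, a window added after seeing the data.

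**Figure D4:**
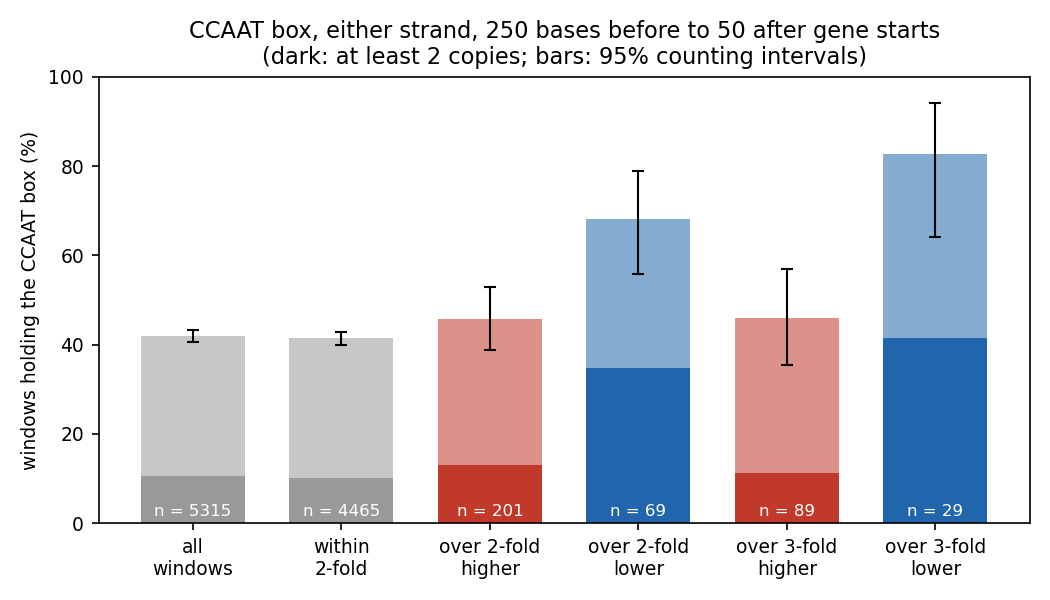
Share of windows (250 bases before to 50 after the annotated gene start) that hold CCAAT on either strand, in percent, for all features, those within 2-fold and those over 2-fold or 3-fold higher or lower. The dark part of a bar is the share with at least 2 copies, the lines are 95% Clopper-Pearson intervals and n is the number of windows. The lower groups stand at 68.1% and 82.8%, against 42.0% of all windows.

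Most features with a box lay within 2-fold. Of 1989 compared features with CCAAT, 2.36% were lower and 4.63% higher by the rule. Of 2746 without it, 0.801% were lower and 3.97% higher. The median log2 ratio was 0.11 with the box and 0.13 without. Of the 32 respiratory genes 20 had it (62.5%), as did 11 of 16 citric acid cycle genes. All 4 genes of the Php complex itself had it. TGACGT, the core of the element that Atf1-Pcr1 dimers bind, was present on either strand in 13.4% of the higher windows (9.04 to 18.9%), 7.25% of the lower and 5.87% of all windows. CCCCTC was present in 1.99% of the higher, 5.80% of the lower and 2.03% of all windows, and CCCCGC in 2.99%, 2.90% and 1.05%. A match of letters is a description of the window, and no binding was measured in these libraries.

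The same strains were also sequenced under both starvations, in other libraries, and their ratios of *php5∆*-labelled over *tup11∆/tup12∆* can be set beside those in glucose. Under glucose starvation the whole comparison was shifted, with a median log2 ratio of −0.62, 34.1% of features over 2-fold lower and 5.31% higher. Under nitrogen starvation the median was −0.11, with 3.21% lower and 3.09% higher. Of the 69 features lower in glucose, 51 were also lower under glucose starvation, which is 73.9% of the former and 3.16% of the 1615 lower there. Under nitrogen starvation 34 were also lower, 49.3% of the former and 21.7% of the 157 there. The deleted *php5* is counted in the 69, the 51 and the 34. Of the 202 features higher in glucose, 80 were also higher under glucose starvation (39.6%, and 31.7% of the 252 there) and 72 under nitrogen starvation (35.6%, and 47.7% of the 151 there). Of these 202, 27 were over 2-fold lower under glucose starvation and 3 under nitrogen starvation. Of the 69, 2 and 1 were over 2-fold higher there. Across 4630 features compared in both media, Pearson's r with glucose starvation was 0.34 and Spearman's rho 0.23. With nitrogen starvation they were 0.44 and 0.18 over 4718 features. Features of a library are not independent, and no p is given.

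In all 3 media 30 features were lower, the deleted *php5* among them, and 44 higher. The lower ones included *cyc1*, *mug14*, *isp3*, *pex7*, SPAC11D3.19, *ups2*, *isu1*, *cyc2*, *mix17*, *coa2*, *mcp60*, *pcl1*, *nde1*, *ndi1*, *rip1* and *cit1*. Not all of these calls hold under median-of-ratios scaling, which divides the glucose starvation values of both mutants by 0.963 and 0.606. With it *isu1*, *pcl1*, *nde1*, *rip1* and *cit1* were less than 2-fold lower under glucose starvation, and *mcp60* under nitrogen starvation. The higher ones included *cmt2*, SPAC4H3.08, *atf21*, *sul2*, *ssd2*, *ctt1*, *srx1*, *ght2*, *ght6*, *erg1*, *erg25*, *erg31*, *sib2*, *frp1* and *php4*, of which *frp1* lost its call in glucose under median-of-ratios scaling. *cyc1* had 1812 and 394 TPM under glucose starvation and 2176 and 250 TPM under nitrogen starvation. *pex7* had 1687 and 95.8 TPM and 2143 and 132 TPM in the same order. Other genes with large changes in glucose had other ratios in the starvation media. *zym1* had 24948 and 12924 TPM under glucose starvation and 10115 and 17572 TPM under nitrogen starvation. SPCC417.16 had 16086 and 17728 TPM under glucose starvation and 8813 and 7666 TPM under nitrogen starvation, with no 2-fold difference in either. SPAC22A12.17c had 983 and 1471 TPM and 123 and 275 TPM. In glucose starvation and nitrogen starvation, *fbp1* was lower in the *php5∆*-labelled library, with 2598 and 579 TPM and 1612 and 85.3 TPM. The differences between media were not tested, with 1 library each.

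**Figure D5:**
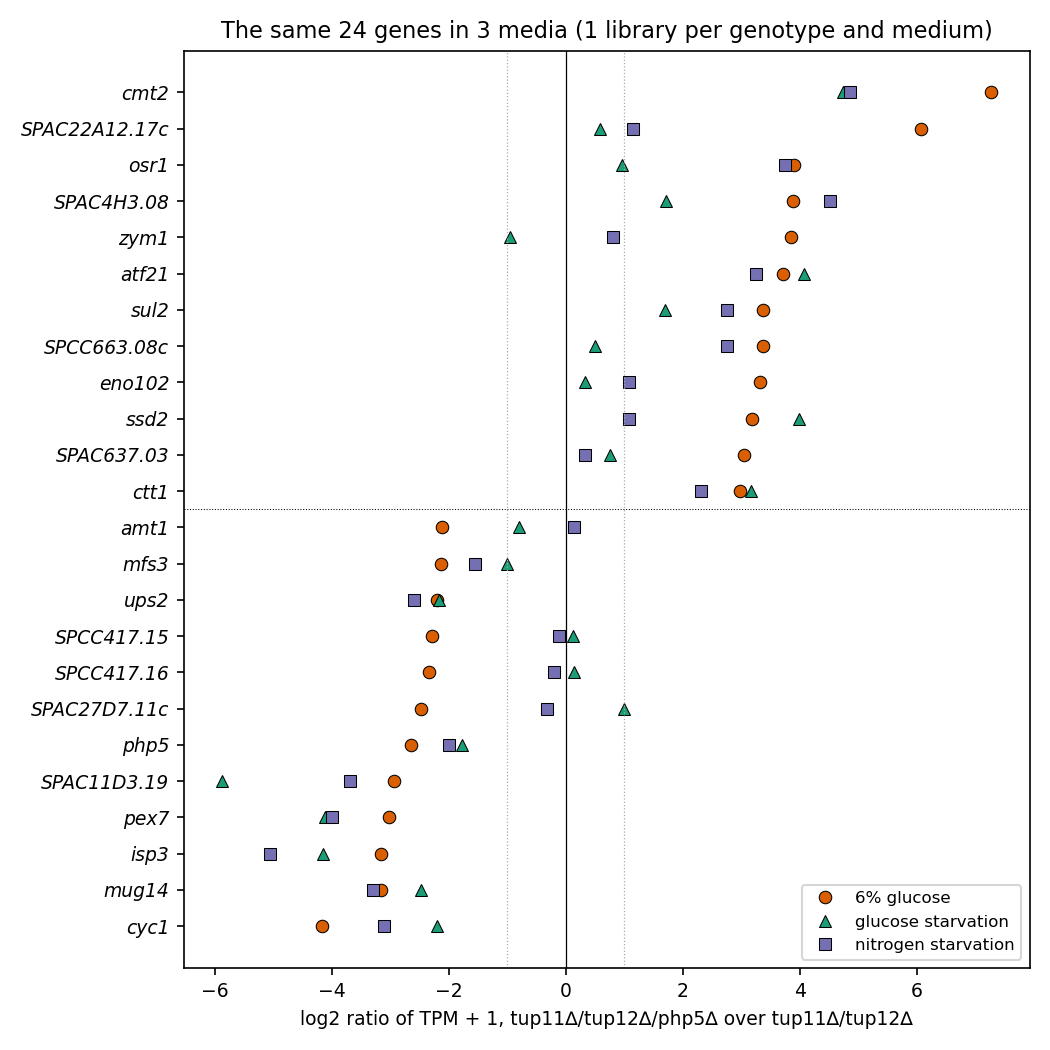
Log2 ratio of TPM + 1, *php5∆*-labelled over *tup11∆/tup12∆*, of the 12 largest increases (above) and the 12 largest decreases (below) in 6% glucose (circles), glucose starvation (triangles) and nitrogen starvation (squares), with 2 libraries behind each point and dotted lines at 2-fold. Of the 12 decreases, the deleted *php5* among them, 9 were negative under glucose starvation and 11 under nitrogen starvation. Of the 12 increases, 11 and 12 were positive.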

How the data were processed

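The labels gave the strain and medium of each library, and the methods of the study how strains were made. According to the methods and processing notes, the authors trimmed reads with fastp, mapped nonstrand-specific poly(A) reads to ASM294v2 with HISAT2, handled alignments with SAMtools and counted them per gene with featureCounts. Tool versions and options are not given in the sources used here. The deposited values are TPM, which sum to 1000000 per library, beside the length of each feature in bases. Columns of per-sample values left unused numbered 0. The methods speak of protein-coding genes, while the table also lists 171 tRNA genes, 32 pseudogenes and 7 features without a type, and all were kept.

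TPM times length, divided by the smallest such product of a library, gave whole reads (within 0.05) for 100% of values. Ratios of TPM have exact Clopper-Pearson 95% intervals from these reads, which cover counting error only, since amplified reads are not independent molecules. With 1 library per group no gene was tested. Log2 ratios used a pseudocount of 1. Genes named are those of the labels and markers, the 12 largest increases and decreases with at least 50 TPM, the list members that passed the 2-fold rule (at most 5 each way) or else the most extreme ones, and the genes of the study's criteria. A gene named for another reason, such as list members given for comparison and *cyc2*, *coa2*, *mix17* and *cir2*, was chosen after its values were seen. The lists and the comparison were themselves chosen with earlier results of these data known.

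Symbols matched 5316 of 5323 features, and 9 list symbols matched none. Genomic sequence and coordinates are those of RefSeq's ASM294v3 release with its annotation, a later release than the build named by the authors, in which the ends of all 2741 single-segment coding genes matched the table. Windows around gene starts were cut from this genome. Of 103 named genes, 74 are overlapped on coding bases by another annotated transcript, and 9 have over 5% of their 50-base words elsewhere, which the unstranded counting cannot resolve.

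Alternatives were minimum levels of none or 50 TPM, thresholds of 1.5-fold and 3-fold, pseudocounts of 0.1 and 10, protein-coding features only, and 3 other scalings (median-of-ratios, upper quartile, and TPM without the 10 most abundant features of each library). The scripts were tested on simulated data. Calculations ran in Python 3.11.15 with scipy 1.17.1, numpy 2.4.6 and pandas 2.3.3, and plots in matplotlib 3.10.9.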

Additional observations from a re-analysis of the deposited data

Results flagged for a closer look

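Among the named genes, 6 passed the 2-fold rule in one direction in glucose and in the other under a starvation medium. The difference between media was not tested, since each ratio rests on 1 library per genotype. Under glucose starvation *cta3* had a log2 ratio of 4.96 (19.4 and 632 TPM), against −1.30 in glucose, and *ght5* had 1.08 (1418 and 3009 TPM) against −1.53. In the opposite sense, *map2* had −3.29 under glucose starvation and −2.20 under nitrogen starvation, against 1.48 in glucose. *tgp1* had −1.77 and −1.98 in the same order, against 0.98, which is 0.85 and under 2-fold with median-of-ratios scaling. *adh8* had −3.05 under glucose starvation (322 and 37.9 TPM), against 2.47. *shu1* had −1.12 under glucose starvation (249 and 114 TPM), against 2.25, and −0.46 there under median-of-ratios scaling. The median of all features under glucose starvation was −0.62, so that a negative ratio there is less far from the other features than its size.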

How the results depend on the processing

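The counts of 202 higher and 69 lower features became 473 and 179 at 1.5-fold and 89 and 29 at 3-fold. Without a minimum level they were 303 and 117. Under median-of-ratios scaling the median log2 ratio of all features was −0.041, that of the respiratory list −0.93, of the iron list 0.52 and of the Sty1-Atf1 list 0.40, and respiratory genes lower by the rule numbered 10 in place of 5, Sty1-Atf1 genes higher 6 in place of 9 and iron genes higher 2 in place of 3. Respiratory genes lower by the rule numbered 26 at 1.5-fold and 1, *cyc1*, at 3-fold. Iron genes higher by the rule numbered 10 at 1.5-fold, and Sty1-Atf1 genes 5 at 3-fold. With at least 50 TPM, the medians were 0.79 for the iron list and 1.07 for the Sty1-Atf1 list. The share of windows with CCAAT among lower features was 82.8% at 3-fold and 46.4% on the gene strand alone. Among higher features it was 25.9% on the gene strand and 62.2% in the 500 bases before the coding start. All 69 lower features stayed lower under median-of-ratios scaling, as did 149 of the 202 higher ones. None of the named genes that passed the rule changed sign under the scalings or pseudocounts tried, though 256 recomputed ratios of named genes moved by more than counting error and 259 did not. Counts shared with the starvation media stayed within 1.5-fold under the scalings.

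No paired analysis was possible because each group has 1 library in glucose rich medium, and leaving out a replicate was not possible for the same reason. A fit over all 3 media with the medium as the pair would estimate an average over media and was not run. The depth limits only features with few reads, and the missing replicates limit every value, since the spread between cultures is unknown.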

Other observations

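Genes of sulfate assimilation, a group assembled after the values were seen and so without weight as a count, were mostly higher in the *php5∆*-labelled library. Of 11 genes from sulfate uptake to cysteine and homocysteine synthesis, 8 were over 2-fold higher and 0 lower, with a median log2 ratio of 1.87. *sul1*, a sulfate transporter, had 40.8 TPM in the library labelled *tup11∆/tup12∆* and 130 TPM in the *php5∆*-labelled one, the order used below, and *sul2* is given in the report. *sir1* and *met10*, the subunits of sulfite reductase, had 61.1 and 279 TPM and 38.4 and 77.6 TPM. *met1*, which takes part in making the sirohaem of that enzyme, had 36.8 and 204 TPM. *cys2*, homoserine O-acetyltransferase, had 58.9 and 361 TPM, *cys11*, cysteine synthase, 110 and 474 TPM, and *met17*, homocysteine synthase, 196 and 718 TPM. The steps between uptake and sulfite reductase were within 2-fold, with *sua1* (ATP sulfurylase) at 812 and 1417 TPM, *met14* at 742 and 774 TPM and *met16* at 146 and 202 TPM. *hmt2*, a sulfide-quinone oxidoreductase that detoxifies sulfide, had 242 and 859 TPM.

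Other genes chosen after their values were seen were *obr1*, a quinone reductase, with 938 and 6186 TPM, and *fet4*, a low-affinity iron and zinc transporter, with 10.7 and 70.7 TPM. *nce103*, a carbonic anhydrase, had 493 and 183 TPM, and *ctr4*, a subunit of the copper transporter, had 146 and 57.1 TPM.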
